A study of Mus musculus with 9 samples.

Results

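The small leucine-rich proteoglycans of OB-6 cells, an osteoblastic line from mouse, were followed over 0, 30 and 60 min of parathyroid hormone (PTH). Of 7 genes of the family chosen by name (Omd, Bgn, Dcn, Lum, Fmod, Ogn and Prelp), 6 were represented, by 9 of the 12488 probe sets in the deposited table. Prelp was not analysed here, since the platform annotation used here paired its symbol with no probe set. Total RNA was hybridised to 1-colour short-oligonucleotide arrays, with 3 arrays per time (replicates a, b and c) and 9 in all. The groups shared the same cell line and differed, per the labels, only in the time of PTH treatment. The 0 min arrays are called the basal group there. How much PTH was added, and how the cells were grown, is not given in the sources used here. Cells held for the same times without PTH were not analysed here. All values come from 1 cell line, and whether its 3 arrays per time stem from separate cultures is not stated in the labels. The p-values therefore reflect array-to-array spread only, and that spread may be technical.

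Small leucine-rich proteoglycans are secreted matrix proteins with a horseshoe-shaped core of leucine-rich repeats, and most carry glycosaminoglycan chains. They bind collagen fibrils and set how fibrils grow and pack, and several bind growth factors such as TGF-beta. Bone matrix is rich in them, and osteoblasts secrete biglycan, decorin, osteoadherin and osteoglycin. The family is commonly divided into classes by sequence. Biglycan (Bgn) and decorin (Dcn), which carry chondroitin or dermatan sulfate, form the first class. Osteoadherin (Omd, also called osteomodulin), lumican (Lum), fibromodulin (Fmod) and Prelp, several of which carry keratan sulfate, form the second. Osteoglycin (Ogn, also called mimecan) belongs to the third.

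Intensities are given as deposited, on a linear scale. Changes were computed on the log2(intensity + 11.8) scale, where 11.8 is the 20th percentile of the whole table, so that changes of dim probe sets are understated. Of the 9 member probe sets 8 were tested, because at least 3 of the 9 arrays exceeded an intensity of 44.7. The remaining one, the second probe set of Fmod (161373_r_at), lay between 3.50 and 27.0 on every array and was left out. A change was called at a Benjamini-Hochberg adjusted p under 0.05 in limma, adjusted over all 7884 tested probe sets. Levels of different genes are not compared, since each probe set has its own response.

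Early response genes checked the labels. Fos, which forms AP-1 with Jun proteins, stood at an intensity of 30.9 ± 3.45 at 0 min and 698 ± 104 at 30 min (SD, n = 3 arrays each). Nr4a1, a nuclear receptor of the early cAMP response, stood at 44.0 ± 19.1 and 306 ± 46.8. Pairs of arrays correlated at 0.891 to 0.980 across tested probe sets. Replicate b of 60 min stood furthest apart (median r of 0.938 with the rest). Of the 15 osteoblast markers 10 had a probe set, and 8 of these passed the filter. Col1a1, Col1a2 and Sparc were bright. The bone matrix genes Ibsp and Dmp1 had mean intensities of 98.0 and 41.0. Phex and the PTH receptor gene Pth1r stood below the filter, Phex at a mean of 13.0 and Pth1r with means between 15.7 and 34.5. Of the endothelial markers 0 of 6 passed the filter, of the chondrocyte markers 1 of 6 (Col9a1) and of the adipocyte markers 3 of 6 (Cebpa, Fabp4 and Pparg). Of the haematopoietic and osteoclast markers 4 of 9 passed (Ctsk, Cd68, Csf1r and Acp5). Of the skeletal muscle markers 4 of 8 did (Myod1, Myog, Ckm and Tnnc2). Ptprc, the pan-leukocyte gene, had a mean intensity of 5.59 and Adipoq, the adipocyte hormone gene, of 20.8. Other markers of the same lists were brighter, such as Ctsk (609), Cd68 (128), Cebpa (454) and Fabp4 (77.1). The muscle genes Myod1 and Myog had means of 121 and 53.3. Ckm, a muscle creatine kinase gene, was the 1 called among these markers of other cell types. It rose by 0.86 on the log2 scale at 60 min (SE 0.19, limma adjusted p = 0.0197), a call lost without 0 min replicates a, b or c (0.0704, 0.0562 and 0.0716). The part of other cell types in the results below was not tested.

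**Figure D1:**
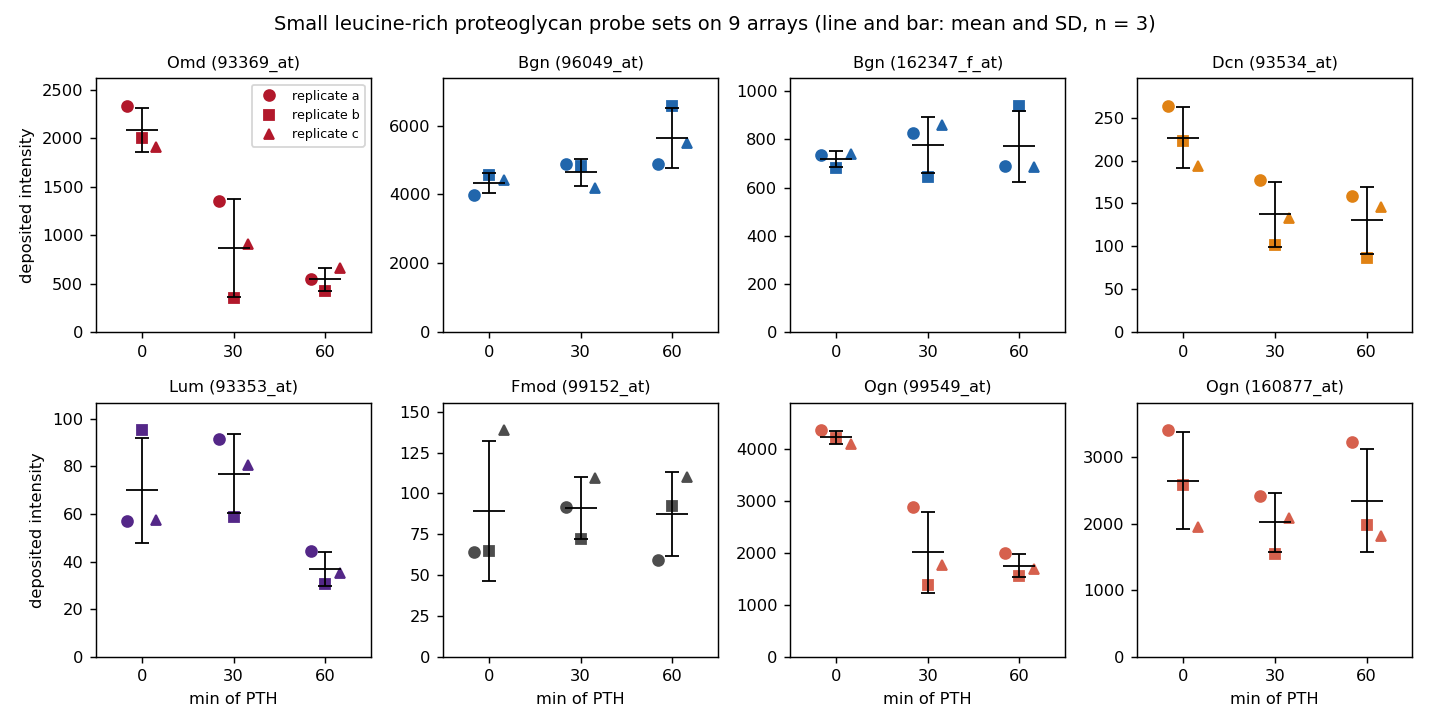
Deposited intensity (linear axes from 0) of the 8 tested member probe sets on each of the 9 arrays against min of PTH, with symbols for replicates a, b and c and a line and bar for the mean and SD of 3 arrays. The 3 arrays at 60 min lie below the 3 at 0 min for Omd, Dcn, Lum and Ogn 99549_at, and above them for Bgn 96049_at. Among all tested probe sets 20.7% lie below and 20% above in this way.

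Within the first hour of PTH, Omd and 1 of the 2 probe sets of Ogn fell. The Dcn and Lum arrays at 60 min lay below those at 0 min, as for 20.7% of all tested probe sets, and neither gene passed the threshold. No change of Bgn or Fmod passed it. After 30 min 1 of the 8 member probe sets was called, Ogn 99549_at, against 0.939% of all tested probe sets, 0.457% lower and 0.482% higher. After 60 min 2 of 8 were called, Omd and Ogn 99549_at, both lower, against 13.1% of all tested probe sets called, 8.73% lower and 4.35% higher. The F test over the 3 times called the same 2 member probe sets, against 4.64% of all tested. In neither comparison was a member called higher, while 3 of 8 had an unadjusted p under 0.05 at 30 min and 5 of 8 at 60 min in limma, where 17.9% and 32.8% of all tested probe sets did. Taking each gene by its brightest probe set, the median log2 fold change of the 6 genes was -0.31 at 30 min and -0.75 at 60 min, and over all 8 tested member probe sets it was -0.14 and -0.46. The medians over all tested probe sets were 0.05 and 0.03. Ogn 99549_at counts as the brighter through the 0 min arrays, where its mean was 4233 against 2644 for 160877_at. At 60 min the order was the reverse, at 1754 against 2343. This choice of probe set lowers the medians of the 6 genes. Over all tested probe sets, the split of calls at 30 min was 36 lower and 38 higher as deposited. It moved with the scaling, to 93 and 52 under quantile normalization, 61 and 40 when arrays were set to a common 75th percentile, and 60 and 32 under cyclic loess. At 60 min it was 688 and 343 as deposited, and 650 and 500 with the common 75th percentile. The lower calls made up 66.7% and 56.5% of these, against 61.9% under quantile normalization and 73.3% under cyclic loess. Both comparisons share the 0 min arrays, so their values are set side by side and are not independent.

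Omd encodes osteoadherin, a keratan sulfate proteoglycan of mineralised bone matrix that binds osteoblasts through an integrin. Its probe set (93369_at) read 2336, 2006 and 1906 on the 0 min arrays a, b and c. At 30 min it read 1356, 349 and 907, and at 60 min 546, 423 and 664. Every treated array therefore lay below every untreated one, and the 3 arrays at 30 min were far more scattered than those at 60 min. The means were 2083 ± 225, 871 ± 504 and 545 ± 120 (SD, n = 3 arrays each). All 6 treated arrays lay below all 3 untreated ones for 12.4% of the tested probe sets. At 60 min Omd fell by 1.93 on the log2 scale (SE 0.38, 95% interval -2.77 to -1.09), a 3.81-fold fall with a limma adjusted p of 0.0145. This was the 13th largest fall among the 7884 tested probe sets. At 30 min the log2 fold change was -1.44 (SE 0.38, interval -2.28 to -0.60), with a limma adjusted p of 0.101, which missed the threshold.

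At 30 min replicates a, b and c of Omd stood at -0.61, -2.53 and -1.18 from the 0 min mean on the log2 scale, so that replicate b was the lowest. With replicate b of 30 min left out, the log2 fold change was -0.90 (limma adjusted p = 0.172). Leaving out replicate a of that time instead gave -1.86 (limma adjusted p = 0.0186). Without 60 min replicate b, which enters only through the shared spread, the adjusted p at 30 min was 0.0464. At 60 min the value moved little, between -2.08 and -1.76 whichever array was left out. The call at 60 min was nevertheless lost without 0 min replicate a (limma adjusted p = 0.0690) or 0 min replicate b (0.0626). Between 30 and 60 min the difference was -0.49 (SE 0.38, interval -1.33 to 0.35), and the arrays of the 2 times overlapped. In the F test over all 3 times Omd passed with a limma adjusted p of 0.0386, which was lost without any 0 min array or replicate c of 30 or 60 min, with values between 0.0645 and 0.177.

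Ogn encodes osteoglycin, a bone and connective tissue proteoglycan first isolated from bone as an osteoinductive factor. Its 2 probe sets gave different values. Probe set 99549_at, the brighter, read 4366, 4223 and 4110 at 0 min. It read 2890, 1387 and 1777 at 30 min and 1998, 1566 and 1697 at 60 min. The untreated arrays differed by little, and all 6 treated arrays were below them, as for 12.4% of all tested probe sets. The means were 4233 ± 128, 2018 ± 780 and 1754 ± 221 (SD, n = 3 arrays each). Ogn 99549_at fell by 1.13 on the log2 scale at 30 min (SE 0.21, limma adjusted p = 0.0424), a 2.19-fold fall, and by 1.27 at 60 min (SE 0.21, limma adjusted p = 0.00912), a 2.42-fold fall. The difference between 30 and 60 min was -0.14 (SE 0.21, interval -0.61 to 0.33). Its F test over the 3 times had a limma adjusted p of 0.0191, lost without 0 min replicates a, b or c or 60 min replicate c (0.134, 0.113, 0.0895 and 0.0506).

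The second probe set of Ogn (160877_at) read 3402, 2583 and 1946 at 0 min, then 2420, 1546 and 2087 at 30 min and 3232, 1981 and 1818 at 60 min. These arrays overlapped at every time, and the untreated ones already spread over most of the range of the others. Its log2 fold changes were -0.38 (SE 0.25, interval -0.94 to 0.18) at 30 min and -0.18 (SE 0.25, interval -0.74 to 0.38) at 60 min, with limma adjusted p of 0.453 and 0.660. Taken within each array, the log2 fold change of 99549_at was lower than that of 160877_at by 0.76 at 30 min and by 1.09 at 60 min. Both differences had a two-sided exact permutation p of 0.1, the smallest that 3 arrays against 3 allow. Adjusted over the 28 pairs of member probe sets compared, it was 0.187 and 0.175. The smallest p was common, reached by 15 of the 28 pairs at 30 min and 16 at 60 min. The fall of Ogn thus rests on 1 of its 2 probe sets. The call of 99549_at at 30 min was lost without 0 min replicates a, b or c (limma adjusted p = 0.206, 0.184 and 0.127), 30 min replicates b or c (0.112 and 0.163) or 60 min replicate c (0.0732), and was 0.0749 without a filter and 0.0751 without a variance trend. Its call at 60 min was lost only without 0 min replicate a (0.0544) among the 9 arrays left out in turn.

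**Figure D2:**
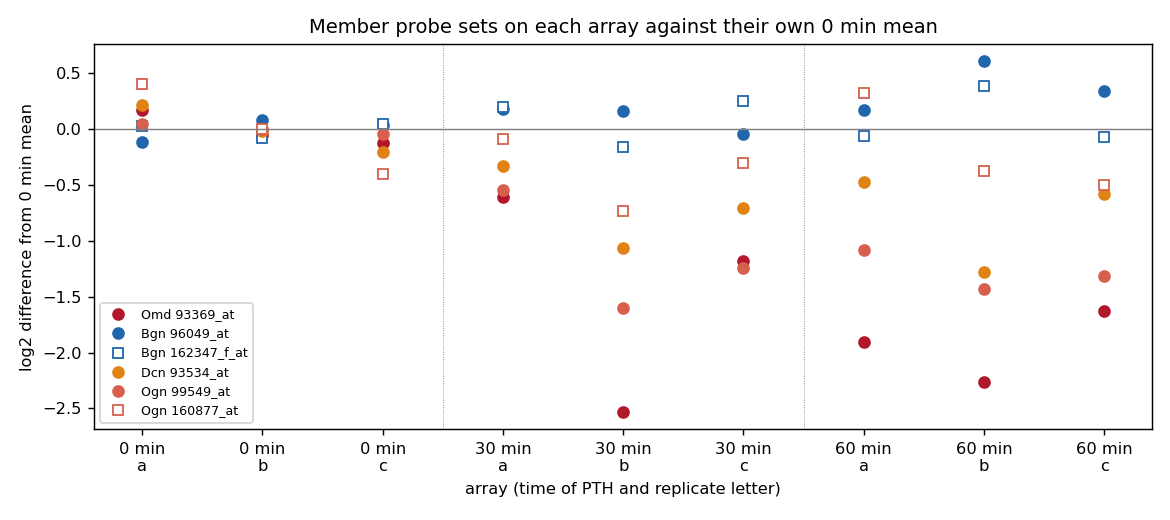
Log2 difference of each array from the 0 min mean of the same probe set, for Omd, Bgn, Dcn and Ogn, with filled circles for the brighter probe set of a gene and open squares for the second, and dotted lines between the 3 times. Omd, Dcn and Ogn 99549_at lie below 0 on all 6 treated arrays. At 30 min replicate b is the lowest of the 3 for each of them (-2.53, -1.07 and -1.60). It is also the lowest for Ogn 160877_at (-0.73) and Bgn 162347_f_at (-0.16), but not for Bgn 96049_at (0.16).

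Omd and Ogn are neighbours in the gene order of the mouse assembly GRCm38.p6, on chromosome 13, where Aspn precedes Omd and Ogn follows it. Dcn and Lum are likewise neighbours, on chromosome 10, and stood at -0.70 and 0.13 at 30 min (two-sided exact permutation p of the difference within arrays = 0.1, 0.187 adjusted over 28 pairs) and at -0.78 and -0.73 at 60 min. At 60 min the log2 fold change of Omd was lower than that of Ogn 99549_at by 0.66 within arrays (two-sided exact permutation p = 0.1, 0.175 adjusted over 28 pairs), and at 30 min by 0.31 (0.5 and 0.636). The 250 bases before the start of each of these 2 genes are shown because both had a called fall, and those of Bgn because neither of its probe sets was called. The sequences are from RefSeq on GRCm38.p6, all on the + strand, at chr13:49582212-49582461 for Omd, chr13:49607765-49608014 for Ogn and chrX:73483351-73483600 for Bgn. Capitals mark matches to any motif searched, and lower case marks the rest.
Omd: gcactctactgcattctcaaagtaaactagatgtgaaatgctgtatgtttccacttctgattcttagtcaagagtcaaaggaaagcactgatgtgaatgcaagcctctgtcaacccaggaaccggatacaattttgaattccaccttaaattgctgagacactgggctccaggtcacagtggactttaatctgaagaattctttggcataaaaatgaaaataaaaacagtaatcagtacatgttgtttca
Ogn: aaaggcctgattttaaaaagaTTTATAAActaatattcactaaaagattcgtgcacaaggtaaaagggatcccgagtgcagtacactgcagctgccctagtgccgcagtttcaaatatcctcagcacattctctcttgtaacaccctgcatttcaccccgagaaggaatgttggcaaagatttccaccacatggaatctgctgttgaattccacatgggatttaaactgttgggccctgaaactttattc
Bgn: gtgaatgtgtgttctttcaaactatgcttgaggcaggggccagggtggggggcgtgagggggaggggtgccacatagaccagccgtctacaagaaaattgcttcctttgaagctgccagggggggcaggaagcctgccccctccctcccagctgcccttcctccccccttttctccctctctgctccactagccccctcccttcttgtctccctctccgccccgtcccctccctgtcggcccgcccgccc

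The motifs searched, on both strands, were the cAMP response element TGACGTCA, its shorter form TGACG, which lies within it, the AP-1 site TGANTCA, the Runx site AACCACA and the TATA sequence TATAAA. Of the 5 member genes with a promoter sequence in the table used here (Omd, Bgn, Fmod, Ogn and Prelp), 0 held a match to the cAMP response element, its shorter form, the AP-1 site or the Runx site in this window. Among all 32851 windows of the same length, these were held by 1.55%, 17.8%, 6.75% and 4.40%. TATAAA was found in the Ogn window alone of the 5, from 227 to 222 bases before the start on the + strand, overlapping a match on the other strand. It was held by 12.4% of all windows. The windows of Omd and Ogn had a G and C content of 38.4% and 42.0%, that of Bgn 64.4%, of Fmod 51.2% and of Prelp 55.6%. The content over all windows was not computed. The absence of these letters concerns this window only.

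Dcn encodes decorin, which coats collagen fibrils and binds TGF-beta. Its single probe set (93534_at) read 264, 223 and 194 at 0 min, 177, 101 and 133 at 30 min, and 158, 86.1 and 146 at 60 min. All 6 treated arrays were below the 3 untreated ones, as for 12.4% of all tested probe sets, and replicate b was the lowest at both treated times. The means were 227 ± 35.4, 137 ± 38.0 and 130 ± 38.7 (SD, n = 3 arrays each). The log2 fold changes were -0.70 (SE 0.24, interval -1.24 to -0.16) at 30 min and -0.78 (SE 0.24, interval -1.31 to -0.24) at 60 min. Their limma adjusted p of 0.175 and 0.0576 both missed the threshold. At 60 min the adjusted p fell under the threshold when 30 min replicate a (0.0452), 30 min replicate b (0.0492) or 60 min replicate a (0.0353) was left out, and 0.0495 with an array-wide covariate chosen after seeing the data. The log2 fold change was -0.53 without 60 min replicate b (0.151). Within arrays the log2 fold change of Omd was lower than that of Dcn by 1.15 at 60 min and by 0.74 at 30 min, each with a two-sided exact permutation p of 0.1, and of 0.175 and 0.187 adjusted over the 28 pairs.

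Bgn, the gene of biglycan, whose loss in mice lowers bone mass, had 2 probe sets. Probe set 96049_at read 3992, 4570 and 4427 at 0 min, 4885, 4841 and 4200 at 30 min, and 4871, 6581 and 5480 at 60 min. The 3 arrays at 60 min were above the 3 at 0 min, as they were for 20% of all tested probe sets. The means were 4330 ± 301, 4642 ± 383 and 5644 ± 866 (SD, n = 3 arrays each). The log2 fold change was 0.10 (SE 0.12) at 30 min and 0.37 (SE 0.12, interval 0.11 to 0.63) at 60 min, and the limma adjusted p at 60 min was 0.0603. It was 0.0226 without 60 min replicate a and 0.0465 with the array-wide covariate. The value at 60 min also depended on the scaling, at 0.09 after quantile normalization and 0.14 after cyclic loess. Within arrays, its log2 fold change at 60 min exceeded that of Omd by 2.30 (two-sided exact permutation p = 0.1, 0.175 adjusted over 28 pairs).

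The second Bgn probe set (162347_f_at) read 734, 681 and 741 at 0 min, 827, 642 and 859 at 30 min and 688, 940 and 685 at 60 min. The arrays of the 3 times overlapped. Its log2 fold changes were 0.10 (SE 0.15, interval -0.24 to 0.43) and 0.09 (SE 0.15, interval -0.25 to 0.42), and both intervals span 0. In this platform's naming the ending _f marks a probe set whose probes can match related sequences, and _r one for which design rules were relaxed.

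Lum encodes lumican, a keratan sulfate proteoglycan known for ordering collagen in the cornea. Its probe set (93353_at) was dim and read 57.0, 95.2 and 57.5 at 0 min, 91.5, 58.8 and 80.6 at 30 min, and 44.5, 30.7 and 35.2 at 60 min. The arrays at 0 and 30 min overlapped, and the 3 at 60 min lay below all of the others. Of all tested probe sets 20.7% had the 60 min arrays below those at 0 min. All 3 of the 60 min arrays were below the intensity that served as filter, so this end of the comparison is close to the dim range. The means were 69.9 ± 21.9, 77.0 ± 16.7 and 36.8 ± 7.04 (SD, n = 3 arrays each). The log2 fold change from 0 to 60 min was -0.73 (SE 0.24, interval -1.27 to -0.19, limma adjusted p = 0.0716), and from 30 to 60 min -0.86 (SE 0.24, interval -1.40 to -0.32, limma adjusted p = 0.526). The latter was the 48th largest fall of its comparison. At 30 min Lum stood at 0.13 (SE 0.24).

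Fmod encodes fibromodulin, which binds collagen in tendon and cartilage. Its tested probe set (99152_at) read 64.4, 65.0 and 139 at 0 min, 91.9, 72.0 and 110 at 30 min, and 59.4, 92.0 and 110 at 60 min. The 3 times overlapped. The log2 fold changes of 0.09 and 0.01 both had an SE of 0.30. The interval at 60 min ran from -0.64 to 0.67, so that a fall or a rise within these bounds remains compatible with the values.

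**Figure D3:**
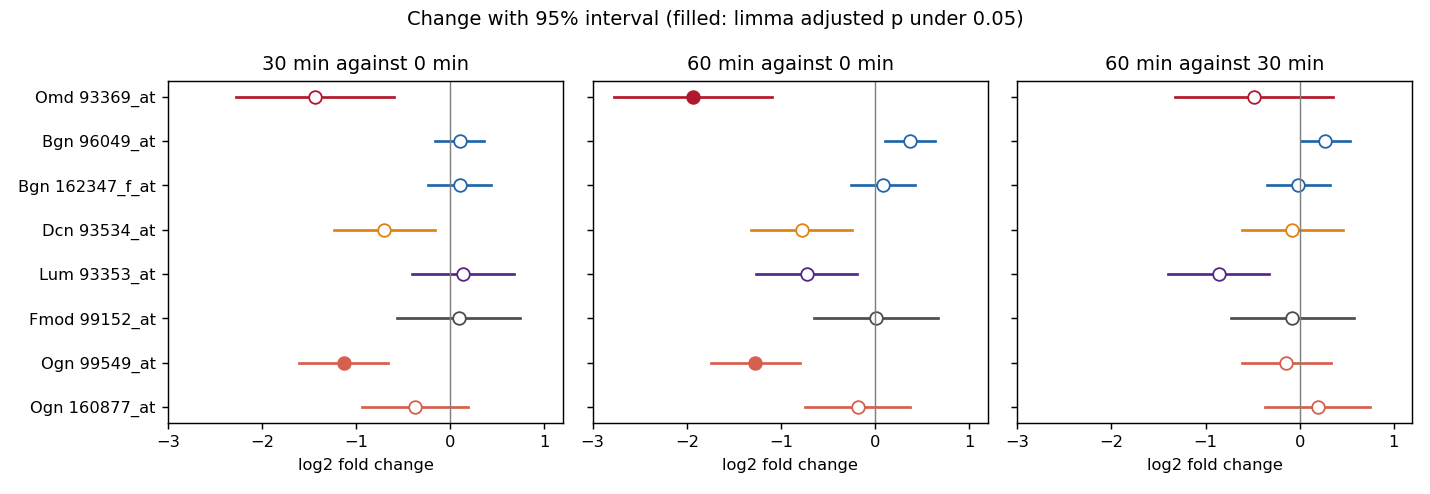
Log2 fold change (horizontal axis) with its 95% interval for each tested member probe set in the 3 comparisons, with filled points at a limma adjusted p under 0.05. The filled points are Ogn 99549_at at 30 min (-1.13) and Omd (-1.93) and Ogn 99549_at (-1.27) at 60 min, and none is filled between 30 and 60 min.

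Between 30 and 60 min limma called 0 of the 8 member probe sets, against 0.0254% of all tested, and 2 of 8 (Lum and Bgn 96049_at) had an unadjusted p under 0.05, as did 9.07% of all tested. The log2 differences ran from -0.86 for Lum to 0.27 for Bgn 96049_at. The 3 arrays at 60 min were all below the 3 at 30 min for Lum alone of the 8, as for 6.49% of all tested probe sets, and all above for 0 of 8, as for 5.06%. The 60 min arrays lay below the 0 min arrays for 4 of 8 member probe sets, against 20.7% of all tested, and the 30 min arrays for 3 of 8, against 15.3%.

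**Figure D4:**
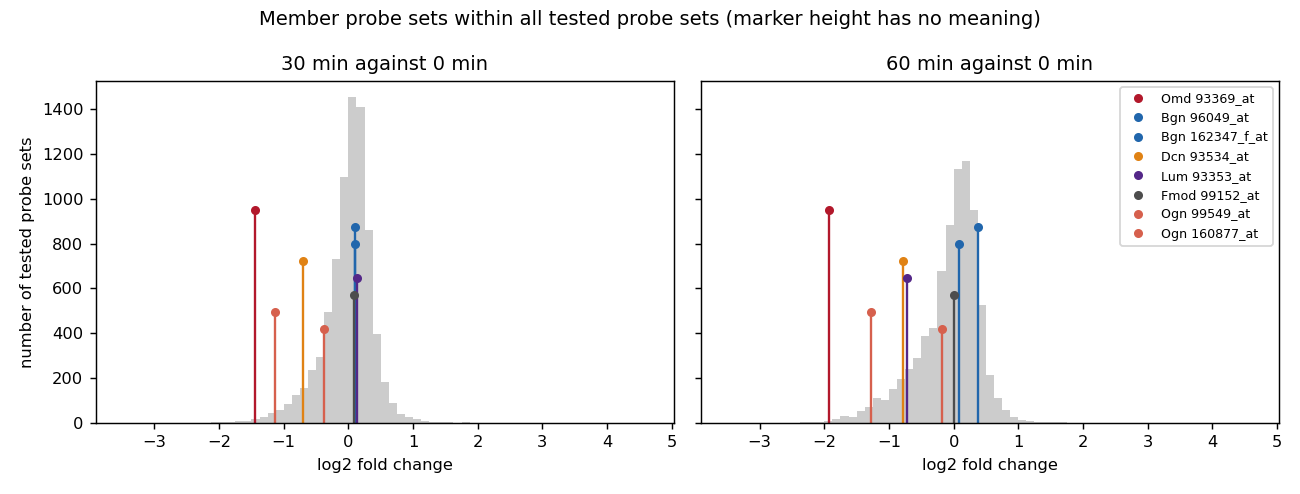
Number of tested probe sets (vertical axis) by log2 fold change from 0 min, in grey, with a stem for each of the 8 member probe sets at its own value, the height of a stem having no meaning. At 60 min Omd (-1.93) lies in the lower tail of all 7884 tested probe sets, while Bgn 96049_at (0.37) lies above 87.6% of them.

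The genes whose pattern over the 9 arrays was most like that of a member were found by the root mean square difference of centred log2 values. For Omd these were Fubp1, encoding a single-stranded DNA-binding protein, Elovl6, a fatty acid elongase, and Stag2, a cohesin subunit, each at 0.24, where the median over all other tested probe sets was 0.996. The 3 genes had log2 fold changes between -1.76 and -1.63 at 60 min. For Ogn 99549_at they were Bod1l (0.093), Usp34, a deubiquitinase (0.11), and Kitl, the ligand of the receptor Kit (0.12), against a median of 0.68. Between members the same measure was 0.40 for Omd and Ogn 99549_at and 0.29 for Dcn and Ogn 99549_at, both smaller than the 0.52 between the 2 probe sets of Ogn. Pairs with no called fall were also close. The 2 probe sets of Bgn stood at 0.22, Bgn 162347_f_at and Fmod at 0.32, and Dcn and Ogn 160877_at at 0.34. This measure describes likeness on 9 arrays that share their scaling and says nothing of shared control.

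The enzymes that build and sulfate the sugar chains of these proteoglycans were counted, like the genes of the lists that follow, by the brightest probe set of each gene. Of 34 listed, 12 had a probe set and 11 were tested, with 0 called by limma at 30 min and 1 lower at 60 min, where 8.73% of all tested probe sets were lower. That gene was Ugp2, which makes UDP-glucose, with means of 294 ± 8.89 at 0 min and 166 ± 36.3 at 60 min (SD, n = 3 arrays each). It fell by 0.80 on the log2 scale (SE 0.23, limma adjusted p = 0.0426). The call was lost without any 0 min array, 30 min replicate c or 60 min replicates b or c (limma adjusted p between 0.0600 and 0.133), and also without a filter (0.0693) or a variance trend (0.0621). Chst2, a sulfotransferase acting on N-acetylglucosamine, had a dimmer probe set that fell at 60 min, its log2 change being -1.10 (SE 0.30, limma adjusted p = 0.0371), while its brightest stood at -0.24. That fall was no longer called when any 0 min array, 30 min replicate c or 60 min replicates b or c was left out (0.0565 to 0.126), without a filter (0.0665), without a variance trend (0.0523) or with only the 2 groups in the fit (0.0618). The enzymes' median log2 fold change at 60 min was 0.11, against 0.03 over all tested probe sets.

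Collagens that these proteoglycans bind had 10 of 12 genes tested. At 60 min 1 was called higher and 0 lower, against 4.35% and 8.73% of all tested probe sets. It was Col1a1, which rose by 0.56 on the log2 scale (SE 0.17, limma adjusted p = 0.0499). Its second probe set stood at 0.08. The first kept its call in 5 of 11 alternatives that left out no single array. It missed the threshold under quantile normalization (0.147) or cyclic loess (0.160), with the constant at the 5th percentile (0.0518), without a filter (0.0911) or a variance trend (0.0874), with only the 2 groups in the fit (0.0822), and without 0 min replicates a or b, any 30 min array or 60 min replicates b or c (0.0585 to 0.172). The median of the collagens was 0.08. Col11a1, a fibril-nucleating collagen chain, was the lowest of them at -0.82 (limma adjusted p = 0.0512). Among other proteoglycans 12 of 22 were tested, with 1 called higher and 1 lower at 60 min, against the same shares. Sdc2, the cell-surface proteoglycan syndecan-2, fell by 0.81 on the log2 scale at 60 min (SE 0.19, limma adjusted p = 0.0250). Gpc1, the membrane-anchored glypican-1, rose by 0.46 (SE 0.11, limma adjusted p = 0.0235). Both calls were lost without any one of the 0 min arrays (limma adjusted p between 0.0691 and 0.0966).

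Growth factors and receptors that bind the family had 11 of 22 genes tested. By the brightest probe set of each gene, limma called 0 at either time, against 0.939% of all tested probe sets at 30 min and 13.1% at 60 min. The brightest, Itgb1 and Lrp1, stood at -0.17 and 0.30 at 60 min. Dimmer probe sets of 2 of these genes were called at 60 min. For Itgav, an integrin subunit, 1 of these fell by 0.65 on the log2 scale (limma adjusted p = 0.0438). The brightest probe set of Itgav stood at -0.57 (0.102) and its remaining one at 0.05 (0.923). For Lrp6, a Wnt co-receptor, the dimmer probe set fell by 1.40 (limma adjusted p = 0.0472), while its brightest stood at -0.32 (0.375). With 1 array left out, the Itgav call held only without 30 min replicate a or 60 min replicate c and the Lrp6 call only without 60 min replicate a, and adjusted p reached 0.160 and 0.141. Of the 10 other alternatives, 5 kept the call of Itgav and 4 that of Lrp6. Proteases that cleave the family had 5 of 11 tested and 0 called at either time, against the same shares of 0.939% and 13.1%. At 60 min Mmp13 stood at -0.66 and Mmp14 at 0.48 (limma adjusted p = 0.0883 and 0.0723). Of further family genes only Chad was tested, at 0.52 (limma adjusted p = 0.252) at 30 min and 0.03 at 60 min, while Kera and Epyc were too dim. Osteoblast markers had 3 of 8 tested members higher at 60 min, against 4.35% of all tested probe sets. The bone matrix genes Ibsp and Dmp1 stood at -0.80 and -0.63 (limma adjusted p = 0.0576 and 0.130). The 3 were Msx2 (0.74) and Dlx5 (0.52), both homeobox factors of bone formation, with limma adjusted p of 0.0197 and 0.0247, and Col1a1. The Msx2 and Dlx5 calls were lost without any one of the 0 min arrays, and that of Dlx5 also without 60 min replicate c (limma adjusted p between 0.0529 and 0.109). In the panel of known PTH responders 6 of 8 were tested. At 60 min 2 were called higher (Fos and Nr4a1) and 1 lower, against 4.35% and 8.73% of all tested probe sets. Nr4a2, Rgs2 and Ptgs2 were called at neither time, and Crem and Tnfsf11 stood below the filter. The 1 lower was Tnfrsf11b, encoding osteoprotegerin. It fell by 1.25 on the log2 scale at 60 min (limma adjusted p = 0.0144), a call lost without 0 min replicates a, b or c (0.0564 to 0.0679).

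**Figure D5:**
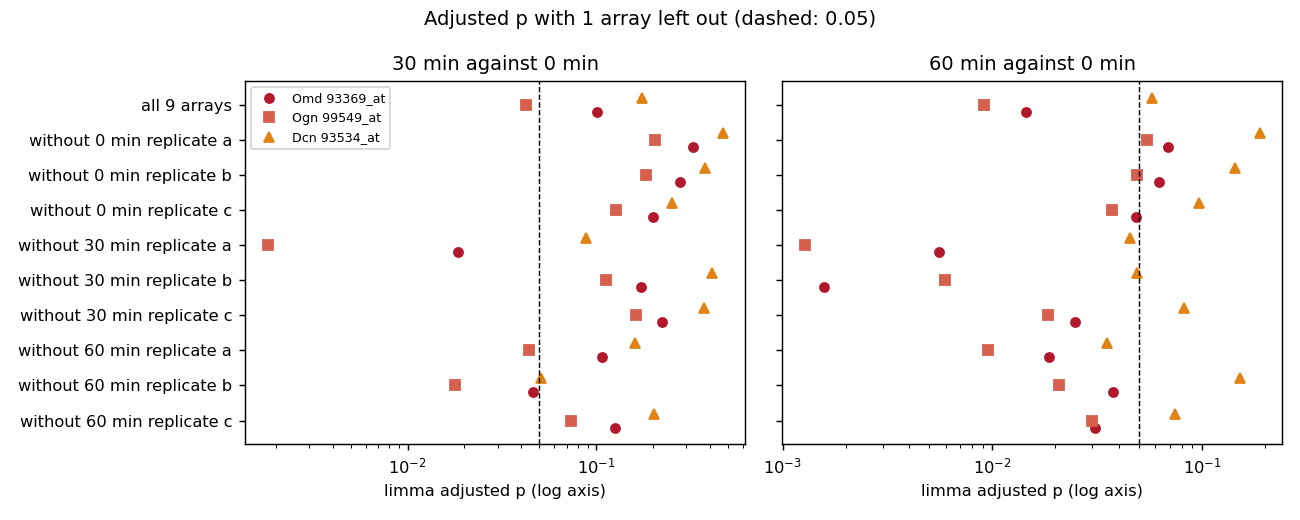
Limma adjusted p (log axis) of Omd, Ogn 99549_at and Dcn with all 9 arrays and with each array left out, for 30 and 60 min against 0 min, the dashed line marking 0.05. At 60 min Omd passes the line except without 0 min replicates a and b (0.0690 and 0.0626), and Ogn 99549_at except without 0 min replicate a (0.0544).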

How the data were processed

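The deposited table gives 1 intensity per probe set and array, linear and from 0.1 to 8605. The software by which the authors made the intensities is not given in the sources used here. Once 2% of probe sets were taken off each end, array means lay between 250.1 and 250.2, a ratio under 1.1, so the intensities were used as deposited. Gene symbols came from the platform annotation (10833 probe sets with 1 symbol, 396 with several, which were not named), and 66 control probe sets were left out.

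Values were converted to log2(intensity + 11.8). A probe set was tested where at least 3 of 9 arrays exceeded the 40th percentile, 44.7. One limma 3.58.1 model (R 4.3.3) with a mean per time and a variance trend was fitted to all arrays (6 residual degrees of freedom, prior 4.68), with Benjamini-Hochberg adjustment over 7884 probe sets. It was tested on simulated data. With 3 arrays against 3, an exact permutation test cannot give a p under 0.1. The number of arrays limits the precision.

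Members and gene lists were chosen with earlier results of these data known. The genes named were all members, up to 3 called genes per list (otherwise the 2 brightest), Fos and Nr4a1, and the 3 genes most like each member that passed the F test. Pth1r, Phex, Ptprc, Adipoq, Pparg, Csf1r, Acp5, Myod1, Myog, Tnnc2, Kera, Epyc, Col11a1, Col1a2, Sparc, Ibsp, Dmp1, Nr4a2, Rgs2, Ptgs2, Crem, Tnfsf11 and the dimmer probe sets of Chst2, Itgav and Lrp6 fall outside this rule. They were chosen after their values were seen. A gene was represented by its brightest probe set. Arrays with the same replicate letter were not treated as paired. Alternatives covered the constant, filter, scaling, variance trend, groups in the fit, replicate block and each array left out, and an array-wide covariate was added after seeing the data. Figures used matplotlib 3.10.9 in Python 3.11.15.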

Additional observations from a re-analysis of the deposited data

How the results depend on the processing

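For single member values, 565 of 624 comparisons with an alternative kept their direction and their side of the threshold. Most of these concern values that were not called. The call of Ogn 99549_at at 30 min held under 12 of 20 alternatives. At 60 min its call held under 19 of 20 and that of Omd under 18 of 20. In the F test these held under 15 of 19 and 12 of 19. The falls of Omd and Ogn 99549_at at 60 min remained called under 11 of 11 alternatives other than single left-out arrays. Probe sets called among all tested at 30 min, 74 as reported, numbered 113 with the constant at the 40th percentile, 39 without a filter, 40 without a variance trend, 389 with only the 2 groups in the fit, 145 after quantile normalization, and 16 to 570 with 1 array left out. Members called at 30 min, 1 as reported, were 0 without a filter or a variance trend and 0 to 2 with 1 array left out. At 60 min, 1031 became 652 without a filter and 69 to 1587 with 1 array left out, and the 2 members became 4 with the array-wide covariate, chosen after seeing the data, and 0 to 4 with 1 array left out. Between 60 and 30 min, 2 became 1 with only those groups and 0 to 5 with 1 array left out, with 0 members called throughout. For the F test, 366 became 590 with the array-wide covariate, 158 without a filter, 184 without a variance trend and 18 to 668 with 1 array left out, and its 2 members became 1 without a filter or a variance trend and 0 to 2 with 1 array left out. The cause of these shifts was not tested for any alternative.

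With the replicate letter as a replicate block, 259 probe sets were called at 30 min, 1446 at 60 min, 1 between 60 and 30 min and 834 in the F test, with 2, 4, 0 and 3 members. The members it added were Omd at 30 min (limma adjusted p = 0.0307), Dcn (0.0178) and Bgn 96049_at (0.0359) at 60 min, and Dcn in the F test (0.0369). The letters were not taken as pairs, since same-lettered deviations correlated between -0.13 and 0.30, over 0.1 in 2 of 9 pairs, and 4 of 9 arrays correlated best with their own letter.

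Values near 0 changed sign. At 60 min Fmod stood at -0.022 with the array-wide covariate. Between 60 and 30 min Dcn stood at 0.013 after quantile normalization and 0.000483 after cyclic loess, Fmod at 0.039 and 0.0325, and Bgn 162347_f_at at 0.043 after scaling to the 75th percentile. With 1 array left out, Fmod ranged from -0.078 to 0.41 at 30 min and from -0.16 to 0.34 at 60 min, Ogn 160877_at from -0.44 to 0.016 and Bgn 162347_f_at from -0.064 to 0.16 at 60 min. Between 60 and 30 min the ranges were -0.16 to 0.065 for Bgn 162347_f_at, -0.26 to 0.17 for Dcn, -0.38 to 0.15 for Ogn 99549_at, -0.24 to 0.14 for Fmod and -0.064 to 0.35 for Ogn 160877_at. Dim signal limits Lum and Fmod.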
